A study of Mus musculus with 2 samples.

Results

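The genes Mir99a, Mir99b, Mir100, Mir10a, Mir10b, Mir125a, Mir125b-1 and Mir125b-2 make up the miR-10, miR-99/100 and miR-125 families of the mouse. They were taken by gene name, and all 8 were found among the 2202 miRNA genes in the files. MicroRNAs are short RNAs that guide the silencing of messenger RNAs, and they were sequenced here from total RNA of a layer of hippocampus, with a size limit of 30 nt. The tissue came from female B6CASTF1/J mice of 18 to 20 months, which are hybrids of a B6 laboratory strain and the wild-derived CAST strain. There were 2 libraries, biological replicates 1 and 2 of 1 group, with no treatment, genotype or age contrasted. The tissue records carry different animal numbers but name 1 donor record, so the spread between the libraries may be partly technical. Which layer was dissected is not given in the labels.

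Mir99a, Mir99b and Mir100 each stand at the head of a cluster in which a let-7 gene and a miR-125 gene follow. miR-125 is the vertebrate relative of lin-4, the first microRNA described in worms, and like let-7 it restrains Lin28 and accompanies neuronal maturation. miR-99 and miR-100 are known for targeting Mtor and other genes of growth signalling. miR-10 genes lie inside Hox gene clusters, repress Hox messages and are typical of spinal cord and trunk rather than forebrain.

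The 5p arms, the arms that usually enter the silencing complex, are shown first because they decide which genes share targets and which reads can be told apart. All 8 genes matched the RefSeq table (GRCm38.p6) with both arms. Capitals mark the seed, bases 2 to 8 from the 5′ end, which pairs with target messages, and all arms lie on the plus strand.
miR-99a-5p, Mir99a, chr16:77598940-77598961: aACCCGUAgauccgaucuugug
miR-100-5p, Mir100, chr9:41531437-41531458: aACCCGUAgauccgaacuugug
miR-99b-5p, Mir99b, chr17:17830194-17830215: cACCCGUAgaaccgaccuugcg
miR-10a-5p, Mir10a, chr11:96317186-96317208: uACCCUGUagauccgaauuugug
miR-10b-5p, Mir10b, chr2:74726074-74726096: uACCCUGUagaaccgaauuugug
miR-125a-5p, Mir125a, chr17:17830817-17830840: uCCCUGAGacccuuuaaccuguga
miR-125b-5p, Mir125b-1, chr9:41581940-41581961, and Mir125b-2, chr16:77646279-77646300: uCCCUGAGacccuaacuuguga

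The 8 genes therefore held 7 different 5p sequences and 3 different seeds. The miR-99/100 and miR-10 arms are often joined in 1 family, but their seeds were not the same. Set position against position, they differed at 3 of 7. The longest shared stretches began inside the seeds, at unlike positions, and ran past them. miR-100-5p and miR-10a-5p shared a stretch of 11 bases, and the miR-99a-5p and miR-10a-5p stretch was 10 bases long. miR-99a-5p and miR-100-5p differed by the single substitution U16A, counted from the 5′ end, and their first 15 bases were identical. miR-10a-5p and miR-10b-5p differed by U12A. miR-99b-5p was further away, with A1C, U11A, U16C and U21C against miR-99a-5p. miR-125a-5p shared its first 13 bases with miR-125b-5p and then diverged.

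Sequence set Mir125b-1 and Mir125b-2 apart from the other members, because their 5p arms are the same letter for letter. None of the windows of 18 bases in miR-125b-5p was found in 1 counted hairpin alone. For the other 6 different 5p arms, and for each 3p arm of the 8 genes, every window of 18 bases was held by its own hairpin only. Over all annotated arms of the counted genes, 12.0% (201 of 1678) were held exactly by another counted hairpin. Reads that fit several places are a separate total in these files, so a read of miR-125b-5p alone cannot be placed on either copy. How many such reads there were was not measured, and the levels of Mir125b-1 and Mir125b-2 can be too low. The arms of a hairpin are summed in the files, so the text below gives levels of genes, not of arms.

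Depth differed: the miRNA genes summed to 2255838 sense counts in replicate 1 and 4521208 in replicate 2. Levels are in CPM, sense counts scaled to a library total of 1000000, with the mean ± SD over both libraries (n = 2) and exact 95% Poisson intervals for single libraries, which cover counting error only. Multimapping reads numbered 1.20 and 1.29 per counted read in replicates 1 and 2, and 29.0% and 11.2% of reads were unmapped. Marker genes agreed in part with the tissue label. Of 11 neuronal markers 9 reached a mean of 1 CPM, led by Mir132 (38949 and 18329 CPM in replicates 1 and 2). However, Mir124a-1, Mir124a-2 and Mir124a-3, which define neurons and are copies of 1 miRNA, were nearly at 0: in replicates 1 and 2 they had 2 and 13, 4 and 0, and 1 and 4 counts. A read that fits several copies falls in the separate total, so these counts cannot show that miR-124 was low in the tissue. The muscle genes Mir1a-1, Mir1a-2, Mir133a-1 and Mir133a-2 had no count. That allowed up to 1.33 CPM of placed reads in replicate 1 and 0.664 CPM in replicate 2. For a count of 0 this limit was set at 3 counts and is not the exact interval. These genes are named as copies too, and the limit does not cover reads that fit several copies. Not all muscle genes were at 0: without the liver gene Mir122, the muscle and liver list had 15.96 and 27.2 CPM in replicates 1 and 2.

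Together the 8 genes took 7.46% of all sense counts in replicate 1 and 5.16% in replicate 2, a mean of 6.31% ± 1.63 (SD, n = 2). The miR-99/100 genes held most of this, with 6.33% and 3.44%. The miR-125 genes held 1.13% and 1.71%, and the miR-10 genes 0.00248% and 0.00498%. The miR-99/100 share was thus higher in replicate 1, and both other shares were higher in replicate 2.

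The levels spanned more than 3 orders of magnitude, from 35741 CPM for Mir99a to 9.63 CPM for Mir10b. In order of mean level, Mir99a was followed by Mir125a, Mir100, Mir99b, Mir125b-1, Mir125b-2, Mir10a and Mir10b. For 5 of the 7 neighbouring pairs in that order, the libraries' ranges did not overlap. Mir100 and Mir99b overlapped, and so did Mir125b-1 and Mir125b-2, and in both pairs the order turned between the libraries. A read covers a whole mature RNA, so CPM was not divided by length. Per 100 bases of hairpin, Mir99b (9209 CPM) passed Mir100 (8330 CPM) and the other 6 places were kept.

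**Figure D1:**
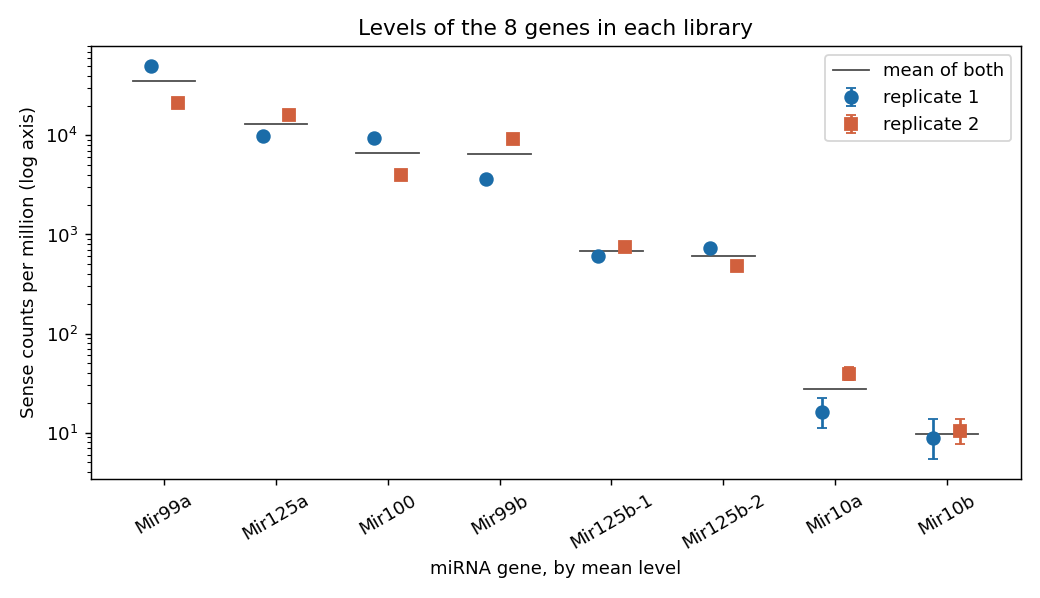
Sense-strand CPM (log axis) of each of the 8 genes in replicate 1 (circles) and replicate 2 (squares), with exact 95% Poisson intervals and a line at the mean of both libraries. Mir99a lies highest in both libraries (50371 and 21110 CPM), and Mir10a and Mir10b lie below 40 CPM in both.

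Mir99a is the leading gene of the group and gives rise to miR-99a. Replicate 1 gave 113629 counts of it, a level of 50371 CPM (50079 to 50665), and replicate 2 gave 95443, a level of 21110 CPM (20976 to 21244). It ranked 5 of all genes in replicate 1 and 12 in replicate 2. Its level was 2.39-fold (2.37 to 2.41, exact conditional binomial interval, counting error only) higher in replicate 1. Mir99a alone made up 54.2% ± 18.8 (SD, n = 2) of the counts of the 8 genes.

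Mir100, which differs from Mir99a in 1 base of the 5p arm and lies on another chromosome, was several times lower. Its level was 9307 CPM (9181 to 9433) in replicate 1, against 4022 CPM (3963 to 4081) in replicate 2. That made it 2.31-fold (2.27 to 2.36) higher in replicate 1, which is close to the fold of Mir99a. The ratio of Mir99a to Mir100 counts was 5.41 (5.33 to 5.49) in replicate 1 and 5.25 (5.17 to 5.33) in replicate 2. That ratio differed by 1.03-fold between the libraries, while each gene differed by more than 2-fold.

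Mir99b has the same seed but went the other way. Replicate 1 had 3635 CPM (3557 to 3715) and replicate 2 had 9257 CPM (9168 to 9346), 2.55-fold (2.49 to 2.61) higher in replicate 2. There were 13.9 counts of Mir99a per count of Mir99b in replicate 1 and 2.28 in replicate 2, a 6.08-fold difference. Mir99b made up 0.391 times the count of Mir100 in replicate 1 and 2.30 times in replicate 2, so which of them is more abundant depended on the library. The makeup of the summed counts of the genes sharing the ACCCGUA seed therefore differed between the libraries. Mir99a held 70.5% ± 12.8 of these counts, Mir99b 16.3% ± 15.0 and Mir100 13.2% ± 2.12 (SD, n = 2). Both arms of each hairpin are summed in them, so the makeup of reads that carry this seed was not measured.

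Mir125a held 90.5% ± 3.28 of the placed counts of the miR-125 genes, from which reads of miR-125b-5p alone can be missing. It reached 9945 CPM (9815 to 10076) in replicate 1, against 15900 CPM (15784 to 16017) in replicate 2, 1.60-fold (1.58 to 1.62) higher in replicate 2. Its 5p arm is not shared with another counted hairpin.

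Mir125b-1 and Mir125b-2, whose shared 5p arm is printed above, were far lower and close to each other. Mir125b-1 reached 606 CPM (574 to 639) in replicate 1, against 755 CPM (730.0 to 781) in replicate 2. Mir125b-2 stood at 729.7 CPM (695 to 766) and 477 CPM (457 to 498). Counts of Mir125b-1 per count of Mir125b-2 were 0.830 (0.772 to 0.892) in replicate 1 and 1.58 (1.499 to 1.67) in replicate 2. Each copy was thus the higher one in 1 of the libraries. In sum they held 0.134% and 0.123% of all counts, 0.923 times as much in replicate 2, so the sum differed less than either copy. Mir125a had 16.4 counts per count of Mir125b-1 in replicate 1 and 21.1 in replicate 2. Since reads of the shared arm cannot be assigned, these ratios do not give the proportion of miR-125a to miR-125b in the tissue.

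The CCCUGAG seed of miR-125 was found in 3 further annotated genes, Mir351, Mir6367 and Mir6394. Mir351, an X-linked gene, had 168 and 72.8 CPM in replicates 1 and 2. Its 5p arm, which lies on the minus strand, is shown because it shares the miR-125 seed (capitals) and then departs from it.
miR-351-5p, Mir351, chrX:53053315-53053338: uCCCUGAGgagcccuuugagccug

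Mir6367 and Mir6394 had no count in either library, which by the limit of 3 counts allowed up to 1.33 CPM in replicate 1 and 0.664 CPM in replicate 2. The seeds of the miR-99/100 and miR-10 genes were found in 0 other annotated genes.

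The Hox-cluster genes Mir10a and Mir10b were scarce. Only 36 counts of Mir10a were found in replicate 1, a level of 15.96 CPM (11.2 to 22.1), and 178 in replicate 2, a level of 39.4 CPM (33.8 to 45.6). It was 2.47-fold (1.72 to 3.64) higher in replicate 2. Mir10b had 20 counts, or 8.87 CPM (5.42 to 13.7), and 47 counts, or 10.4 CPM (7.64 to 13.8). The libraries' intervals overlapped for Mir10b and not for Mir10a. Counts of Mir10a per count of Mir10b were 1.80 (1.01 to 3.28) in replicate 1 and 3.79 (2.73 to 5.34) in replicate 2.

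The other Hox-cluster miRNA genes had still fewer placed counts. Mir196b had 3 and 17 counts in replicates 1 and 2, or 1.33 and 3.76 CPM. Mir615 had 2 and 10 counts, or 0.887 and 2.21 CPM, Mir196a-2 had 0 and 2, and Mir196a-1 had none in either library. With a count of 0 allowing up to 1.33 CPM in replicate 1, the low values of these genes cannot be ranked. In all, the 6 Hox-cluster genes held 0.00270% and 0.00562% of all counts, and Mir10a made up 64.5% ± 7.82 of them. Whether Mir196a-1 and Mir196a-2 share an arm was not tested. Reads that fit both would be missing from their counts and from this sum.

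The genes of a cluster were then set beside each other. On chromosome 16, Mir99a (77598936 to 77599000), Mirlet7c-1 (77599657 to 77599750) and Mir125b-2 lie in introns of the noncoding gene Mir99ahg. Mir125b-2 also overlaps an exon of C130023A14Rik. On chromosome 9, Mir100 (41531425 to 41531504), Mirlet7a-2 (41536716 to 41536811) and Mir125b-1 (41581926 to 41582002) lie in introns of the noncoding genes 3110039I08Rik and Gm49317. Mir100 also overlaps an exon of Gm48742 on the opposite strand, and Mir125b-1 an exon of Gm28119. On chromosome 17, Mir99b (17830188 to 17830257) and Mirlet7e (17830352 to 17830444) lie in introns of Spaca6, and Mir125a (17830812 to 17830879) overlaps an exon of it. Coordinates are mm10.

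The chromosome 17 cluster is compact and spans 692 bases, while the other clusters span 47408 and 50578 bases because miR-125b lies 46522 and 45114 bases beyond let-7. Mir10a (chromosome 11, 96317165 to 96317274) overlaps no annotated gene and lies 993 bases from Hoxb4. Mir10b (chromosome 2, 74726070 to 74726137) lies in introns of Hoxd3 and Hoxd4.

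**Figure D2:**
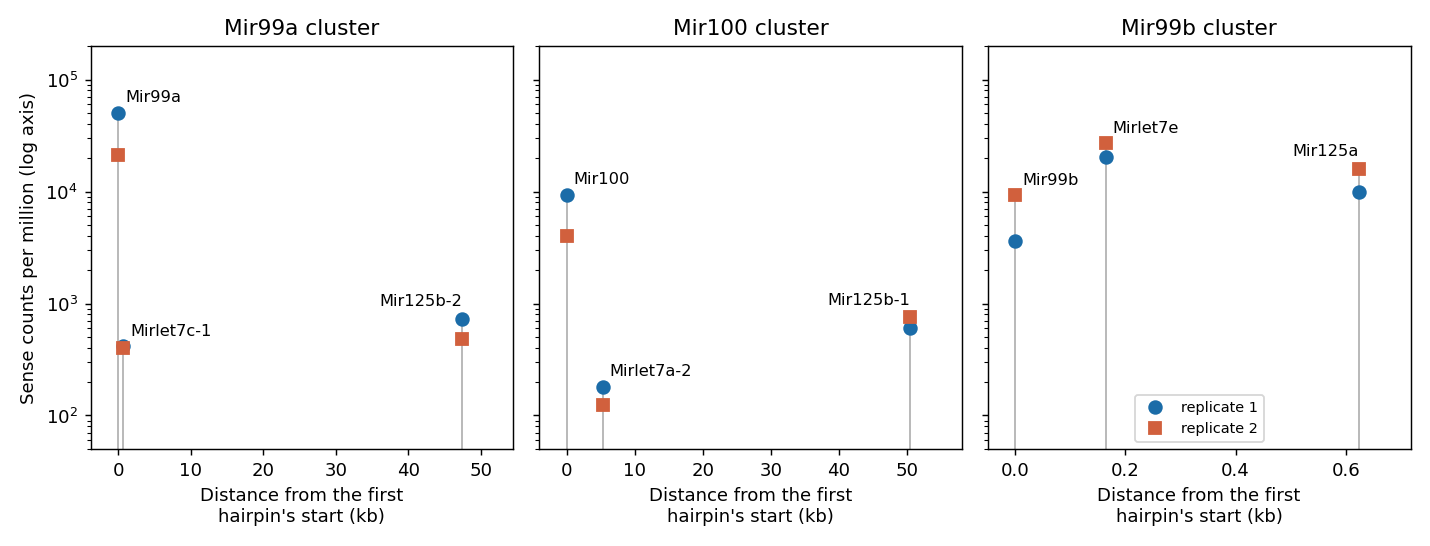
Sense-strand CPM (log axis) of the genes in each cluster against the distance from the start of the first hairpin (kb; the scale of the third panel is far shorter), in replicate 1 (circles) and replicate 2 (squares). In the Mir99a and Mir100 clusters the first gene stands far above the others, whereas in the Mir99b cluster Mirlet7e is highest (20203 and 26944 CPM).

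The clusters on chromosomes 16 and 9 were dominated by their first gene. Mir99a held 96.9% ± 1.26 (SD, n = 2) of the counts of its cluster, Mir125b-2 1.79% ± 0.533 and Mirlet7c-1 1.32% ± 0.728. Mir100 held 87.1% ± 7.19 of its cluster, Mir125b-1 10.7% ± 6.65 and Mirlet7a-2 2.16% ± 0.545. Mirlet7c-1 stood at 414 and 403 CPM in replicates 1 and 2, and Mirlet7a-2 at 180 and 125 CPM. let-7c-5p is held exactly by Mirlet7c-2 as well, so Mirlet7c-1, like both miR-125b copies, can lose reads that fit several places. Whether the 5p arm of Mirlet7a-2 is shared was not tested. These proportions are therefore of placed reads and do not measure processing of the precursors.

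The cluster on chromosome 17 was more even. Mirlet7e held 55.8% ± 5.72 of its counts, Mir125a 30.0% ± 0.764 and Mir99b 14.3% ± 4.95. None of its arms is held by a hairpin at another place: Mirlet7e matches only Gm25927, a hairpin on the opposite strand of the same position. Per count of Mir99b there were 2.74 counts of Mir125a in replicate 1 and 1.72 in replicate 2. The cluster took 3.38% of all counts in replicate 1 and 5.21% in replicate 2, against 5.15% and 2.20% for the Mir99a cluster and 1.01% and 0.490% for the Mir100 cluster. Which cluster held the most placed counts thus turned between the libraries. Reads that fit several places can be missing from the Mir99a and Mir100 clusters.

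In 4 of the 8 genes the libraries were 2-fold or more apart. Mir99b and Mir10a were higher in replicate 2, and Mir99a and Mir100 were lower. With 1 library per sample this difference has no replicate check and no p-value is given. Genes were tested where the mean reached 1 CPM. Of these 495, 25.9% passed 2-fold: 7.68% were higher and 18.2% lower in replicate 2. The 8 genes all passed that minimum, so none was left out. The mean reached 1000 CPM in 96 genes, which include Mir99a, Mir125a, Mir100 and Mir99b, and 15.6% of them passed 2-fold. The median absolute log2 ratio was 0.94 for the 8 genes, against 0.51 over all 495 and 0.41 over the 96, and the median signed log2 ratio was 0.26, against -0.19 over all 495. Log2 ratios are replicate 2 over replicate 1 with 0.5 counts added.

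Single members can be placed among all tested genes. The log2 ratio of Mir99b was 1.35, and 13.9% of the 495 genes had one at least as large in either direction. For Mir10a (1.29) that share was 15.8%, for Mir99a (-1.25) 16.6% and for Mir100 (-1.21) 18.8%. Mir125a (0.68), Mir125b-2 (-0.61), Mir125b-1 (0.32) and Mir10b (0.21) lay further inside the spread, with shares from 38.4% to 78.2%. Among the 96 genes with a mean of at least 1000 CPM the shares were smaller, at 8.33% for Mir99b, 10.4% for Mir99a, 11.5% for Mir100 and 31.2% for Mir125a, which are themselves among the 96.

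**Figure D3:**
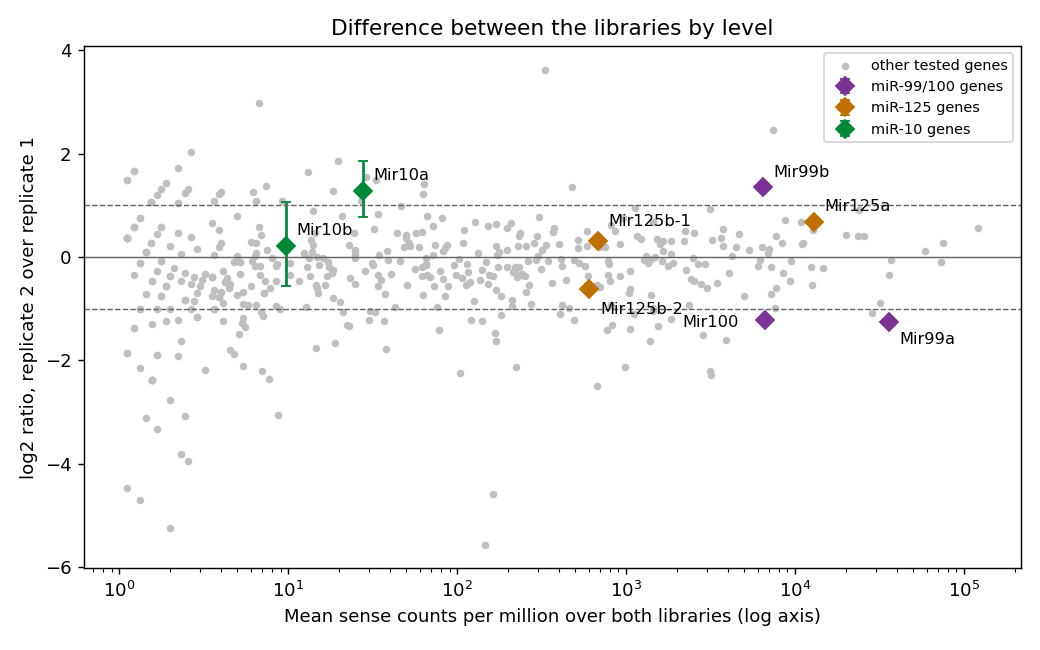
Log2 ratio of replicate 2 over replicate 1 against the mean level in sense-strand CPM (log axis) for the 495 tested genes, with the 8 genes in colour and 95% intervals for counting error. Dashed lines mark 2-fold: Mir99b and Mir10a lie above the upper line, and Mir99a and Mir100 below the lower one.

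Genes of 1 cluster did not differ alike between the libraries. In the Mir99a cluster the log2 ratios were -1.25 for Mir99a, -0.04 for Mirlet7c-1 and -0.61 for Mir125b-2. In the Mir100 cluster they were -1.21 for Mir100, -0.52 for Mirlet7a-2 and 0.32 for Mir125b-1, so the first and last gene had opposite signs. In the Mir99b cluster all 3 were positive, at 1.35 for Mir99b, 0.42 for Mirlet7e and 0.68 for Mir125a.

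**Figure D4:**
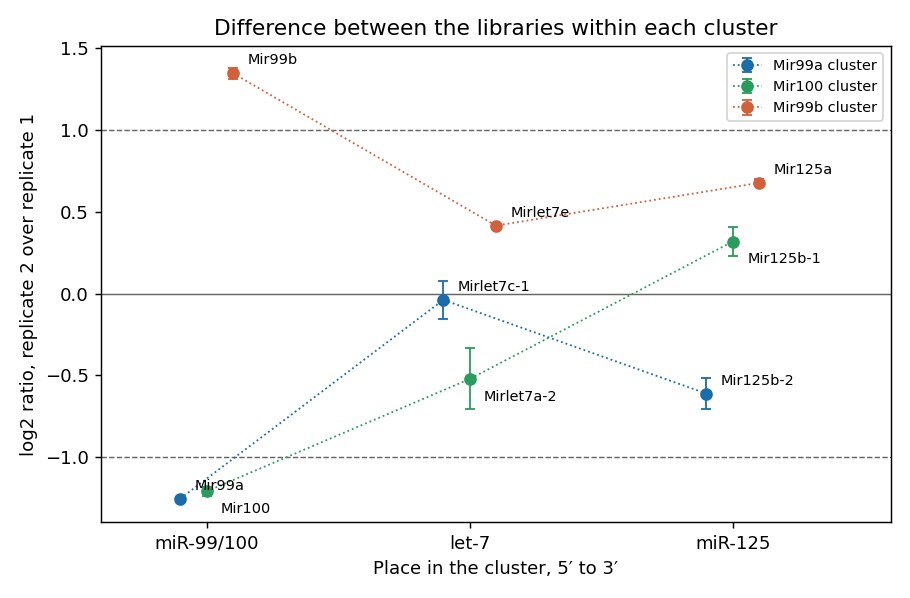
Log2 ratio of replicate 2 over replicate 1, with 95% intervals for counting error, for the 3 genes of each cluster in their order along the chromosome. Mir99a (-1.25) and Mir100 (-1.21) nearly coincide below the lower dashed 2-fold line, Mir99b (1.35) lies above the upper one, and the genes of the Mir99b cluster are all above 0.

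Other features moved between the libraries as well. The summed neuronal markers were at 67449 and 52591 CPM in replicates 1 and 2. That order rests on Mir132: without it the other neuronal markers summed to 28501 and 34262 CPM, higher in replicate 2. The endothelial Mir126a was at 21890 and 29026 CPM. The 7 markers of choroid plexus and ependyma were at 3124 and 1435 CPM, highest among them Mir34c (1597 and 366 CPM), and at 1528 and 1070 CPM without it. The oligodendrocyte list stood at 6829 and 5395 CPM (highest Mir338, 4039 and 2844 CPM), and the microglia and leukocyte list at 1694 and 1682 CPM (highest Mir150, 823 and 752 CPM). The Mir9 copies of progenitors and astrocytes stood at 101 and 91.1 CPM (highest Mir9-3, 94.0 and 69.9 CPM), and the erythroid list at 138 and 136 CPM (highest Mir451a, 105 and 71.0 CPM). Reads that fit several Mir9 copies can be missing from the Mir9 sum. The same limit holds for the neuronal and oligodendrocyte lists, which hold genes named as copies, and for any other such list. For the Mir9 copies and the erythroid list too, the sum without the highest gene was higher in replicate 2. It was 7.09 and 21.2 CPM for the Mir9 copies and 33.2 and 64.8 CPM for the erythroid list. The oligodendrocyte list without Mir338 had 2790 and 2551 CPM, lower in replicate 2. The microglia and leukocyte list without Mir150 had 871 and 929 CPM. The muscle and liver list stood at 30.6 and 70.3 CPM (highest Mir122, 14.6 and 43.1 CPM). The part of cell makeup, and of the share of unmapped reads, in the differences of the 8 genes was not tested. In such tissue, fewer cells of a type and less RNA per cell cannot be told apart. Base composition was also looked at: hairpin GC content was 52.3% for Mir99a, 47.5% for Mir100 and 67.1% for Mir99b. The 495 genes all come from the same 2 libraries, which differed in depth. Across them, GC content and log2 ratio had a Pearson's r of -0.13 and a Spearman's rho of -0.11, given as a description.

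For each member whose mean reached 10 CPM, the other gene nearest in log2(CPM + 1) over the 2 libraries was named. Mirlet7d was nearest to Mir99a (41456 and 22380 CPM in replicates 1 and 2, distance 0.29 log2 units), and Mir221 to Mir100 (10040 and 5067 CPM, distance 0.35). Mir128-1 was nearest to Mir125a (10436 and 14980 CPM, distance 0.11), Mir181b-2 to Mir125b-1 (distance 0.02) and Mir673 to Mir125b-2 (distance 0.18). Mir504 was nearest to Mir10a (15.96 and 40.0 CPM, distance 0.02). Mir99b had no close neighbour by this measure: the nearest, Mir361, lay at 3952 and 5372 CPM, a distance of 0.79. With 2 libraries, likeness of this kind says only that the levels were close.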

How the data were processed

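Small RNA was sequenced in 2 libraries, 1 per tissue sample, which form 1 group. The authors deposited a file of raw counts for each library, with 1 row per miRNA gene and columns without strand, sense and antisense, told apart by their values. The first 4 rows are read totals (unmapped, multimapping, no feature, ambiguous). Per the notes deposited with them, mm10 and GENCODE M21 were used. For the aligner and counter: not given in the sources used here. Genes were named by GENCODE M21 gene name. Library sizes leave these totals out. Sense counts were scaled to CPM by the sum over genes. Where the mean reached 1 CPM, the libraries were compared by log2 ratio (0.5 counts added), called from 2-fold on. The calculation of the ratios was checked on simulated counts with counting error only, which says nothing of the spread between replicates. No test between groups was possible. Alternatives were edgeR 4.0.16 TMM factors, DESeq2 1.42.0 size factors, the unstranded column, other filters, denominators and pseudocounts, and leaving out each library. Mature sequences came from RefSeq (GRCm38.p6), and hairpins were searched as GENCODE M21 gives them. Matches were counted among the 2202 counted hairpins, since no genome sequence was used here. Named genes were the 8 members, their let-7 partners, genes sharing a 5p seed, the other Hox-cluster miRNAs, the nearest other gene to each member reaching 10 CPM, and the highest gene of each marker list; markers at or near 0 were named besides, after their values were seen. Members and lists were chosen with earlier results of these data known. Python 3.11.15 with scipy 1.17.1 was used.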

Additional observations from a re-analysis of the deposited data

How the results depend on the processing

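All 8 genes kept the sign of their log2 ratio under TMM scaling, DESeq2 size factors, the unstranded column and a pseudocount of 5 counts. The same count of 4 genes at 2-fold or more, 2 higher and 2 lower, was found under these and under a minimum of 10 CPM or none. At the minimum of 10 CPM only 7 of the 8 genes were tested, because Mir10b had a mean of 9.63 CPM. The nearest to the threshold was Mir100, at -1.02 with DESeq2 size factors. TMM and DESeq2 scaling raised the median log2 ratio of all tested genes by 0.13 and 0.20, and the share of called genes that were higher in replicate 2 went from 29.7% to 38.1% and 40.4%. Without a filter 1756 of 2202 genes passed 2-fold, because genes at 0 in both libraries then differ by the added 0.5 counts alone. With a minimum of 10 CPM, 53 of 310 passed, against 128 of 495. A pseudocount of 5 counts lowered the higher share to 13.5%.

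The share of counts held by the 8 genes was 2.66% when all mapped reads were the denominator. The share of the Mir99b cluster was 2.12% in the unstranded column, where Mirlet7e reads 0 because Gm25927 overlaps it on the opposite strand. The shares ranged over single libraries from 5.16% to 7.46% for the 8 genes, 2.20% to 5.15% for the Mir99a cluster, 0.490% to 1.01% for the Mir100 cluster, 3.38% to 5.21% for the Mir99b cluster and 0.00248% to 0.00498% for Mir10a and Mir10b. No paired analysis was possible because the series has 1 group.

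Low counts limit the Hox-cluster genes, and reads that fit several places can be missing from Mir125b-1 and Mir125b-2, in a number that was not measured. Mir10a rests on 36 counts in replicate 1 and Mir10b on 20.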
